A study of Mus musculus with 14 samples.

Results

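A set of 10 genes of the tumor necrosis factor (TNF) ligand family were examined in activated mouse CD4+ T cells: Fasl, Tnfsf10, Tnf, Lta, Ltb, Cd40lg, Tnfsf4, Tnfsf8, Tnfsf14 and Tnfsf11. They are 10 of the 55450 genes in the annotation. Each was found by gene name in the expression table of each library, or, where a table had no row of that name, by the unnamed locus that shared at least 0.8 of the joint span with the gene in the mouse genome build mm10. Of the 140 member values (10 genes in 14 libraries), 44 came from named rows, 95 were matched by position and 1 could not be had. The least similar locus accepted shared 0.889 of the span (Cd40lg, restimulated WT replicate 3). The locus left out was a merged one over Ltb and its neighbor Lst1 in that same library, which shared 0.203.

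TNF family ligands are trimeric proteins that are made on the cell surface or released, and they signal to receptors of the TNF receptor family on neighboring cells. T cells make many of them after stimulation through the T cell receptor. Fas ligand and TRAIL (encoded by Fasl and Tnfsf10) can trigger apoptosis in cells with the matching death receptors, whereas CD40 ligand, OX40 ligand and related members give helper or costimulatory signals to B cells, dendritic cells and other T cells.

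The data came from 2 RNA-Seq experiments on C57BL/6 mice. The study's methods give an age of 6 to 12 weeks for mice of both sexes, littermate controls, and naive CD4+ T cells sorted from pooled spleen and lymph nodes (the labels name spleen). In the first experiment, 4 WT samples were compared with 4 samples from mice that carried HDAC1f/f and HDAC2f/+ with CD4cre, named HDAC1cKO-HDAC2HET, after 3 days of activation by anti-CD3 and anti-CD28 antibodies with IL-2 added. In the second, 3 WT samples were compared with 3 HDAC1cKO samples (HDAC1f/f with CD4cre, both Hdac2 alleles intact) after the same 3 days and a further 12 hours of restimulation with anti-CD3. The paper cites an earlier publication for this comparison, and its RNA-Seq methods describe only the 3-day culture. The details of mice and sorting given above may therefore not hold for the second experiment. HDAC1 and HDAC2 are histone deacetylases. The Cd4-driven Cre acts from the CD4-expressing stage of thymocyte development, so CD8+ T cells carry the deletion as well, and the deletion precedes activation. Genotype and culture both differed between the experiments, so each mutant was compared with the WT samples of its own experiment.

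Expression was given as fragments per kilobase of transcript, scaled to the mapped fragments of the library (FPKM), which is comparable between genes per length. Hdac1 fell from 78.1 ± 1.44 to 8.30 ± 1.89 FPKM (mean ± SD, n = 4) in the first experiment and from 75.6 ± 4.78 to 10.1 ± 1.82 FPKM (n = 3) in the second, and Hdac2 fell in the first from 59.0 ± 1.04 to 35.4 ± 1.36 FPKM. The depth estimated from the bounds on the FPKM values was 2.50e+07 to 5.91e+07 fragments a library, and the bounds of the member values spanned a median of 4.88% to each side (range 1.15% to 13.6%, counting and assignment error only). The 5 T cell markers with a value in every library summed to 774 to 1149 FPKM. Markers of B cells (4 genes) and of dendritic cells (4 genes) summed to at most 4.38 FPKM, and those of myeloid cells (7 genes) and of erythroid cells (4 genes) to at most 0.815 FPKM in any library. In both WT groups the 4 NK cell markers summed to at most 1.01 FPKM. Xist, made from the inactive X chromosome of female cells, was at 26.0 FPKM or more in all 8 libraries of the first experiment. In the second experiment it was at 42.9 and 33.2 FPKM in WT replicates 1 and 3 and at most 0.0435 FPKM in WT replicate 2 and in all 3 HDAC1cKO libraries, so sex was unbalanced there. A fit with sex as a covariate there sets the HDAC1cKO samples against WT replicate 2 alone. No label says that same-numbered samples share an animal or litter. The limma p-values set the difference between groups against the spread between these samples.

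For 8 of the 10 genes the RefSeq promoter table (GRCm38.p6) held the sequence before the transcription start; Tnfsf4 and Cd40lg are not in it. Of these, 5 are shown, each as the 250 bases before the start, 5′ to 3′ on the strand of the gene: Fasl, the ligand gene called higher in HDAC1cKO-HDAC2HET cells, the 3 genes called lower that have an entry (Tnfsf8, Tnfsf14 and Tnfsf11), and Tnf, whose level did not pass the test. They lie at chr1:161788496-161788745 (minus strand), chr4:63861285-63861534 (minus), chr17:57194182-57194431 (minus), chr14:78308044-78308293 (minus) and chr17:35202008-35202257 (minus). Capitals mark matches on either strand to 5 short motifs, GGAAAA (core of NFAT sites), TGANTCA (AP-1), TGTGGT (RUNX core), GGTGTGA (site of T-box factors) and TATAAA (motif of the TATA box), and no match overlapped another.
Fasl: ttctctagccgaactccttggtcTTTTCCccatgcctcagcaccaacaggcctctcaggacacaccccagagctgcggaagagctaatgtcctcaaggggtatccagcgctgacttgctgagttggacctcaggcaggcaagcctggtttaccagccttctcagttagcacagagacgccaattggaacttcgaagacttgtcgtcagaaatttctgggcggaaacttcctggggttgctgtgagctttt
Tnfsf8: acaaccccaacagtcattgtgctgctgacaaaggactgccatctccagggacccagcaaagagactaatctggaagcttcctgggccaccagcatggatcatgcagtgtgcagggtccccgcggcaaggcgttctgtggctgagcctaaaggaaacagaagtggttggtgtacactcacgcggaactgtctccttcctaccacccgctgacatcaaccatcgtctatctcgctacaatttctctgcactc
Tnfsf14: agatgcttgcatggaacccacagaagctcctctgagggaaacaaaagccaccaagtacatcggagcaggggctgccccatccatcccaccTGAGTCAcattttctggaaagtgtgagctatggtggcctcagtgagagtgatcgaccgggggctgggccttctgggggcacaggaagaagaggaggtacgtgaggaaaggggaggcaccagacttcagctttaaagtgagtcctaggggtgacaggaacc
Tnfsf11: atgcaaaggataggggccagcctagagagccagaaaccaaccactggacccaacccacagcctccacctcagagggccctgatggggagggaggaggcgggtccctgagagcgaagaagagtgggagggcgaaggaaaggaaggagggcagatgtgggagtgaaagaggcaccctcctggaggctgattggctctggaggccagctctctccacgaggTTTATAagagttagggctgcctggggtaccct
Tnf: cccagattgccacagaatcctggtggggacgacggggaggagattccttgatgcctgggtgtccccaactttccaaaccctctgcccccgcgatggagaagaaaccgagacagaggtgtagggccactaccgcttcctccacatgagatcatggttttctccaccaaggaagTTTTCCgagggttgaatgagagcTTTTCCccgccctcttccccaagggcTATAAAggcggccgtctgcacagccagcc

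GGAAAA was found in 2 of the 8 member promoters (Fasl and Tnf) and in 20.4% of the 32851 promoters of the table, read over the same 250 bases. TGANTCA was found in 1 of 8 (Tnfsf14) and in 6.75% of all, and TATAAA in 3 of 8 (Tnf, Lta and Tnfsf11) and in 12.4% of all. The RUNX core TGTGGT, found in 14% of all promoters, and the T-box motif GGTGTGA, found in 3.33%, had no match in these windows. The Tnfsf8 window held none of the 5 motifs. These are matches of letters and not binding sites.

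In HDAC1cKO-HDAC2HET cells the ligand genes moved in opposite directions. Fasl rose 2.37-fold, while Cd40lg, Tnfsf4, Tnfsf8, Tnfsf14 and Tnfsf11 fell 2.06- to 4.17-fold. In all, 6 of the 10 genes were called, meaning a fold change of at least 2 with an adjusted p of at most 0.05 (limma, Benjamini-Hochberg over all genes tested), against 11.2% of the 15111 genes tested. Of these, 1 was higher (5.60% of all genes) and 5 were lower (5.56%). At any fold change, 8 of 10 passed the adjusted p, where 51.8% of all genes did, with 3 higher (24.2% of all genes) and 5 lower (27.6%). The share was larger among genes more like these. It was 7399 of 11058 in a fit on protein-coding genes alone, and 6667 of 10855 in a fit at a mean of at least 1 FPKM. In both fits 3 members again passed as higher and 5 as lower. In 7 of the 10 the groups did not overlap, as in 50.4% of all genes. The median log2 fold change of the 10 genes was −0.62, beside −0.05 over all genes tested. The 10 genes, and the gene lists used below, were chosen with earlier results of these data known. The shares over all genes are therefore a description and not a test of the set. These are bulk samples, in which fewer cells making a transcript and less of it per cell cannot be told apart.

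Of the death ligand genes, Fasl passed the test and Tnfsf10 did not. Fasl (chr1:161780689-161788495, minus strand) was at 6.03, 5.40, 6.25 and 6.34 FPKM in the WT samples and at 16.4, 15.7, 12.6 and 12.2 FPKM in the HDAC1cKO-HDAC2HET samples. The groups did not overlap, and the lowest mutant sample was well above the highest WT sample. The log2 fold change was 1.22 ± 0.11 (SE, adjusted p = 5.99e-05), and the 2-sided exact permutation test gave p = 0.0286, the smallest that 4 against 4 samples allow. Tnfsf10 (chr3:27317028-27342427, plus strand), which encodes TRAIL, was at 19.5, 18.2, 14.9 and 15.9 FPKM in WT and at 17.7, 14.7, 12.7 and 14.4 FPKM in mutant samples. The groups overlapped, and the log2 fold change of −0.20 did not pass the test (adjusted p = 0.197, 95% confidence interval −0.48 to 0.07).

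Of the markers of cytotoxic lymphocytes, Klrk1 and the 2 CD8 T cell markers rose where Fasl did. The other NK cell markers with a value in every library did not. Klrk1, which encodes the activating receptor NKG2D of NK and CD8+ T cells, was at 0.243 ± 0.118 FPKM in WT and 24.8 ± 3.54 FPKM in HDAC1cKO-HDAC2HET samples (n = 4). It made up nearly all of the NK cell marker sum of 21.1 to 29.1 FPKM, and in the mutant samples the NK markers Klra4 and Klra8 were at 0 in every library. Mean Ncr1 was 0.00375 FPKM in WT and 0.00388 FPKM in mutant samples. The 2 CD8 T cell markers summed to 3.28 to 5.96 FPKM in WT and to 11.7 to 15.2 FPKM in mutant samples, most of it Cd8b1, with Cd8a at 0.439 ± 0.108 FPKM. Cd4 was at 213 ± 3.93 and 164 ± 3.37 FPKM, and all 5 T cell markers tested passed the adjusted p as lower, where 27.6% of all genes did. These falls ranged from 1.13-fold (Cd3g) to 1.58-fold (Cd3d). The B cell sum was 0.497 to 0.945 FPKM in WT and 2.78 to 4.38 FPKM in mutant samples, and the dendritic cell sum was 0.598 to 1.08 and 2.17 to 2.96 FPKM. Most of each difference was 1 gene, Cd79b (0.293 ± 0.0713 and 2.75 ± 0.473 FPKM) and Zbtb46 (0.732 ± 0.205 and 2.32 ± 0.384 FPKM), while Cd79a did not pass the test (adjusted p = 0.391) and Itgax, Flt3 and Xcr1 were at means of at most 0.0341 FPKM. The part of these markers in the ligand levels was not tested.

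**Figure D1:**
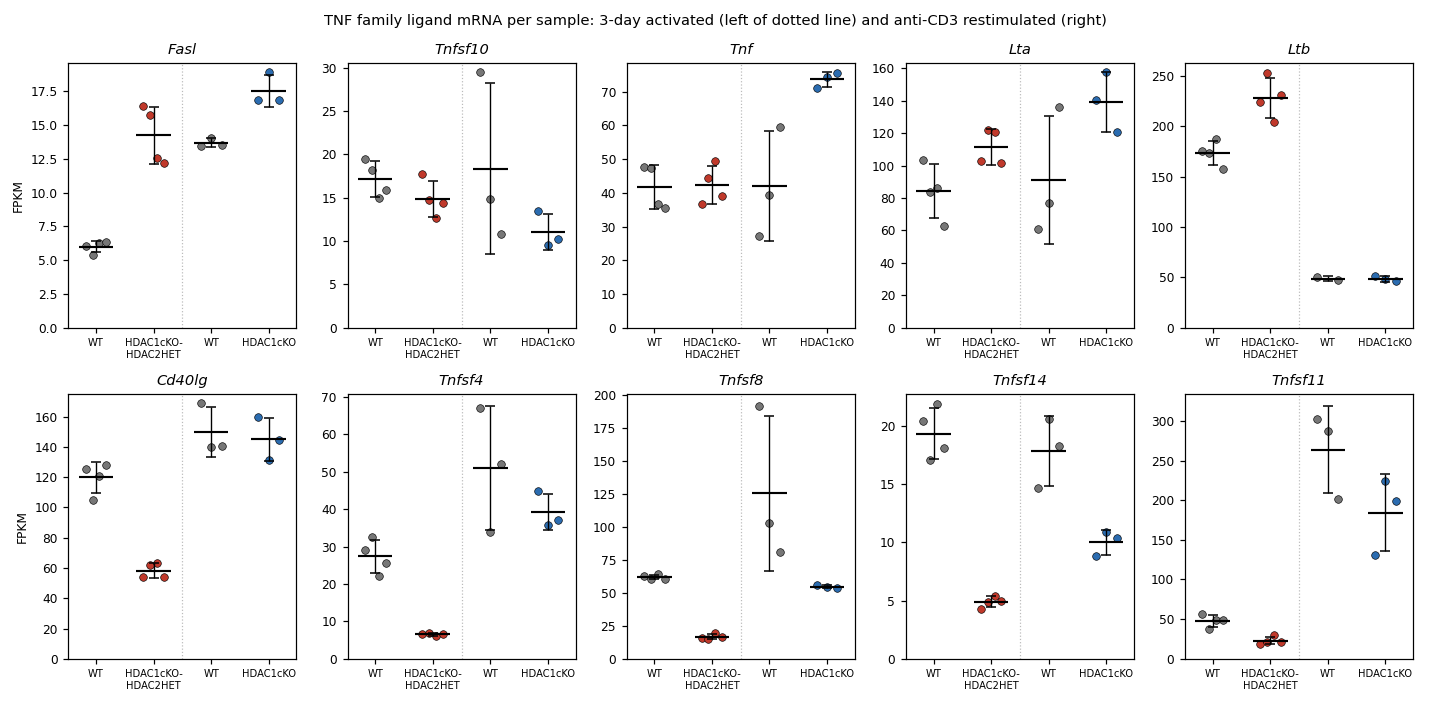
FPKM of each ligand gene (y axes, linear from 0) in every library of the 4 groups (x axes); points are samples, horizontal lines are means and bars are SD (n = 4 a group left of the dotted line, n = 3 right of it, 2 for Ltb in restimulated WT). In the first experiment Fasl is higher in all 4 mutant samples, and Cd40lg, Tnfsf4, Tnfsf8, Tnfsf14 and Tnfsf11 are lower in all 4.

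The inflammatory ligands TNF and lymphotoxin are encoded by 3 neighboring genes on chromosome 17, with 3060 bases between Ltb and Tnf and 1157 bases between Tnf and Lta. Of these, Lta and Ltb passed the adjusted p as higher and Tnf did not. Tnf (chr17:35199381-35202007, minus strand) was at 47.6, 47.3, 36.7 and 35.5 FPKM in WT and at 36.8, 44.3, 49.3 and 39.0 FPKM in HDAC1cKO-HDAC2HET samples. The samples of both groups were interleaved, with a log2 fold change of 0.02 (adjusted p = 0.899, 95% confidence interval −0.29 to 0.33) whose sign turned under 5 of 20 alternative settings.

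Ltb (chr17:35194439-35196320, plus strand), whose product anchors lymphotoxin at the membrane, had the highest mean level of the 10 genes in both groups of this experiment. It was at 176, 174, 187 and 158 FPKM in WT and at 224, 253, 205 and 231 FPKM in mutant samples. All mutant samples were above all WT samples, and Ltb rose 1.31-fold (log2 fold change 0.39 ± 0.07, adjusted p = 0.00286). Lta (chr17:35203165-35205351, minus strand), which encodes the soluble lymphotoxin subunit, was at 104, 84.0, 86.5 and 62.8 FPKM in WT and at 103, 122, 121 and 102 FPKM in mutant samples. WT replicate 1 lay within the mutant range. The log2 fold change of 0.42 ± 0.15 passed narrowly (adjusted p = 0.0441), and the exact permutation test gave p = 0.0857. Under 11 of 20 alternative settings Lta no longer passed the adjusted p (0.0148 to 0.158 over all 20). Lta and Ltb each overlap a microRNA gene on the same strand, Mir6974 and Mir6973a, whose reads cannot be told apart from theirs.

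The ligands of the helper and costimulatory kind fell. Cd40lg (chrX:57212143-57224042, plus strand) encodes the ligand through which helper T cells activate B cells and dendritic cells. It was at 125.5, 105, 120.5 and 128 FPKM in WT and at 53.9, 62.2, 63.1 and 53.8 FPKM in HDAC1cKO-HDAC2HET samples. The groups were well apart, and Cd40lg was 2.06-fold lower (log2 fold change −1.04 ± 0.08, adjusted p = 3.13e-05). On the same chromosome, Xist was 2.09-fold lower in the mutant samples (62.0 ± 2.59 and 29.6 ± 3.83 FPKM), and its part in the Cd40lg level was not tested.

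Tnfsf4 (chr1:161395409-161418410, plus strand) encodes OX40 ligand, a costimulator of T cells that is better known on antigen-presenting cells. It was at 29.1, 32.6, 22.2 and 25.5 FPKM in WT and at 6.56, 7.02, 6.05 and 6.61 FPKM in mutant samples. This was the largest fall of the 10 genes, 4.17-fold (log2 fold change −2.03 ± 0.12, adjusted p = 6.90e-06), with no overlap. Tnfsf4 and Fasl lie on the same chromosome with Tnfsf18 between them, and Tnfsf18 was at 0 FPKM in all 8 libraries.

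Tnfsf8 (chr4:63831308-63861347, minus strand) encodes CD30 ligand, a surface protein of activated T cells. It was at 62.8, 60.6, 63.9 and 60.6 FPKM in WT, the least spread of the 10 genes relative to its mean, and at 15.7, 14.8, 19.2 and 16.5 FPKM in mutant samples. The samples separated by a wide gap, a 3.75-fold fall (log2 fold change −1.91 ± 0.08, adjusted p = 1.86e-06). Tnfsf14 (chr17:57189492-57194177, minus strand), which encodes LIGHT, a ligand of HVEM and of the lymphotoxin β receptor, was at 20.4, 17.1, 21.9 and 18.1 FPKM in WT and at 4.27, 4.91, 5.41 and 4.99 FPKM in mutant samples. It fell 3.95-fold (log2 fold change −1.96 ± 0.10, adjusted p = 4.48e-06), and became the lowest of the 10 genes.

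Tnfsf11 (chr14:78277445-78308043, minus strand) encodes RANKL, the osteoclast differentiation factor that activated T cells also make. It was at 56.2, 38.1, 49.2 and 48.4 FPKM in WT and at 19.2, 20.8, 29.6 and 21.4 FPKM in mutant samples. The groups did not overlap, and Tnfsf11 was 2.11-fold lower (log2 fold change −1.08 ± 0.16, adjusted p = 8.07e-04). Cd40lg and Tnfsf11 were the called genes nearest to the 2-fold limit. When the median of all genes was set equal in every library, their log2 fold changes were −0.95 and −0.99, still past the adjusted p but under 2-fold, so that 3 and not 5 genes were called lower.

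The order of the levels changed with these shifts. In WT samples Ltb (174 ± 12.1 FPKM) and Cd40lg (119.8 ± 10.3 FPKM) were followed by Lta, Tnfsf8, Tnfsf11, Tnf, Tnfsf4, Tnfsf14 and Tnfsf10, with Fasl the lowest (6.00 ± 0.426 FPKM). The ranges of Lta and Tnfsf8, of Tnfsf11 and Tnf, and of Tnfsf14 and Tnfsf10 overlapped, and the other neighbors in this order did not. In HDAC1cKO-HDAC2HET samples the order was Ltb, Lta, Cd40lg, Tnf, Tnfsf11, Tnfsf8, Tnfsf10, Fasl, Tnfsf4 and Tnfsf14, with overlap among Tnfsf8, Tnfsf10 and Fasl. Fasl (14.2 ± 2.14 FPKM) thus passed Tnfsf4 (6.56 ± 0.397 FPKM) and Tnfsf14 (4.90 ± 0.470 FPKM).

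The balance of helper and death ligand transcripts was read within each library, where the scaling of the library cancels. In WT samples there were 20.8, 19.5, 19.3 and 20.2 FPKM of Cd40lg per FPKM of Fasl. In HDAC1cKO-HDAC2HET samples the ratios were 3.28, 3.95, 5.01 and 4.41. The highest mutant ratio was far under the lowest WT ratio, with means of 19.9 ± 0.705 and 4.17 ± 0.730 (SD, n = 4). For Tnfsf10 the ratio of Cd40lg was 6.45, 5.79, 8.07 and 8.08 in WT and 3.04, 4.23, 4.98 and 3.75 in mutant samples, which also did not overlap, although Tnfsf10 itself did not pass the test.

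**Figure D2:**
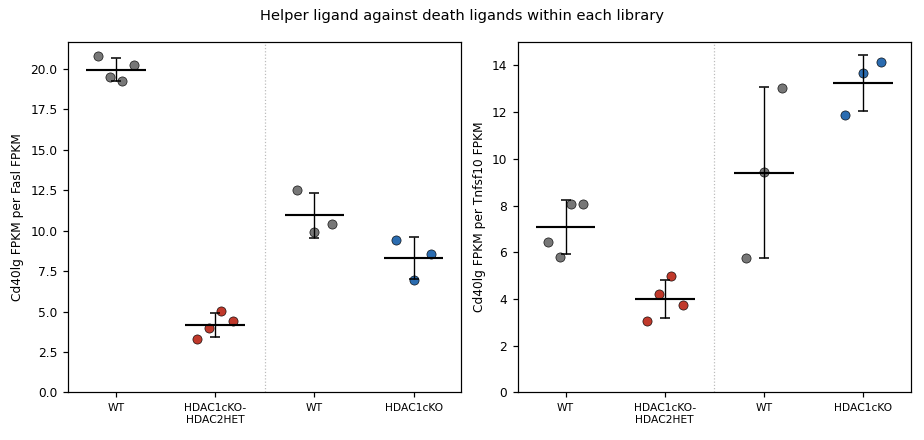
Cd40lg FPKM per FPKM of Fasl (left panel) and of Tnfsf10 (right panel) in every library (y axes, linear from 0) by group (x axes; 3-day activated left of the dotted line, restimulated right of it); lines are means and bars SD. The Cd40lg to Fasl ratio lies between 19.3 and 20.8 in the 4 WT samples of the first experiment and between 3.28 and 5.01 in the HDAC1cKO-HDAC2HET samples.

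In the second experiment, restimulated HDAC1cKO cells were compared with restimulated WT cells. None of the 9 genes tested was called (limma, 0.0647% of the 13914 genes tested were), nor did any pass the adjusted p at a smaller fold change (0.0719% of all genes passed). At an unadjusted p under 0.05 there were 4 of 9, Fasl and Tnf on the higher side and Tnfsf8 and Tnfsf14 on the lower, where 14.4% of all genes passed (6.58% higher and 7.77% lower). In these 4 genes the groups did not overlap, as in 22.3% of all genes. With 3 against 3 samples an exact permutation test cannot go below p = 0.1. The median log2 fold change of the 9 genes was −0.33, beside −0.03 over all genes.

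Fasl was at 13.5, 14.1 and 13.5 FPKM in WT and at 16.9, 18.9 and 16.9 FPKM in HDAC1cKO samples. Every mutant sample was above every WT sample, by 1.28-fold in the means (log2 fold change 0.35 ± 0.08, adjusted p = 0.197; 0.31 with sex as a covariate). The NK cell marker sum was 0.0288 to 1.01 FPKM in WT and 4.31 to 5.23 FPKM in mutant samples, and the CD8 T cell sum was 3.80 to 4.86 and 6.52 to 7.30 FPKM. Klrk1 again made up nearly all of the NK cell sum, at 4.74 ± 0.451 FPKM in mutant samples. Tnfsf10 was at 29.5, 14.8 and 10.8 FPKM in WT and at 13.4, 9.59 and 10.2 FPKM in mutant samples. The spread within WT was as wide as the difference, and the log2 fold change of −0.61 (adjusted p = 0.501) became −0.21 without WT replicate 1 and −0.93 without WT replicate 3.

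Tnf was at 27.2, 39.3 and 59.5 FPKM in restimulated WT and at 71.1, 74.3 and 75.6 FPKM in HDAC1cKO samples. The mutant samples were close together and above all WT samples (log2 fold change 0.88 ± 0.27, adjusted p = 0.255). Lta was at 60.8, 76.9 and 136 FPKM in WT and at 140.2, 157.5 and 120.6 FPKM in mutant samples. The WT samples had the same order for Lta as for Tnf, and the groups overlapped (log2 fold change 0.69 ± 0.30, adjusted p = 0.368). Without WT replicate 1 the log2 fold changes were 0.60 for Tnf and 0.44 for Lta. Ltb was at 50.5 and 47.0 FPKM in WT replicates 1 and 2 and at 51.8, 47.9 and 46.2 FPKM in mutant samples, with no value of its own in WT replicate 3, where the merged locus (chr17:35187060-35196320) was at 54.2 FPKM. Ltb was therefore not tested in the fit over all samples. With genes of at least 2 values a group allowed, a setting chosen after seeing the data, its log2 fold change was −0.01 (adjusted p = 0.987, WT replicate 3 dropped), and it differed from that of the first experiment by 0.40 (adjusted p = 0.0432).

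Cd40lg was at 169, 139.8 and 141 FPKM in restimulated WT and at 159.6, 131 and 144 FPKM in HDAC1cKO samples. The groups were interleaved (log2 fold change −0.05, adjusted p = 0.883, 95% confidence interval −0.32 to 0.23). Tnfsf4 was at 67.1, 34.0 and 52.2 FPKM in WT and at 44.9, 35.9 and 37.2 FPKM in mutant samples, also with overlap (log2 fold change −0.33, adjusted p = 0.592). The Tnfsf4 value was −0.11 without WT replicate 1 and −0.60 without WT replicate 2. Sex as a covariate turned the sign of both genes, to 0.05 for Cd40lg and 0.20 for Tnfsf4. That fit sets the mutant samples against WT replicate 2 alone.

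Tnfsf8 was at 192, 103 and 81.2 FPKM in restimulated WT and at 55.8, 54.0 and 54.0 FPKM in HDAC1cKO samples. All mutant samples were lower, by 2.29-fold in the means (log2 fold change −1.10 ± 0.31, adjusted p = 0.232), and the fold leaned on WT replicate 1, without which it was −0.74. Tnfsf14 was at 14.7, 20.6 and 18.3 FPKM in WT and at 8.82, 10.9 and 10.4 FPKM in mutant samples, again without overlap (log2 fold change −0.82 ± 0.15, adjusted p = 0.160; −1.04 with sex as a covariate). Tnfsf11, which had the highest mean of the 10 genes in both restimulated groups, was at 303, 287 and 201 FPKM in WT and at 131, 224 and 198 FPKM in mutant samples. Here the groups overlapped (log2 fold change −0.53 ± 0.25, adjusted p = 0.397; −0.30 without HDAC1cKO replicate 1), and in HDAC1cKO replicate 1 Tnfsf11 was below Cd40lg and Lta. The Cd40lg to Fasl ratio was 12.5, 9.93 and 10.4 in WT and 9.45, 6.93 and 8.56 in HDAC1cKO samples, with all mutant ratios below the WT ratios. The Cd40lg to Tnfsf10 ratio lay the other way in the means, at 5.74, 9.43 and 13.1 in WT and 11.9, 13.7 and 14.2 in HDAC1cKO samples, and the groups overlapped.

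**Figure D3:**
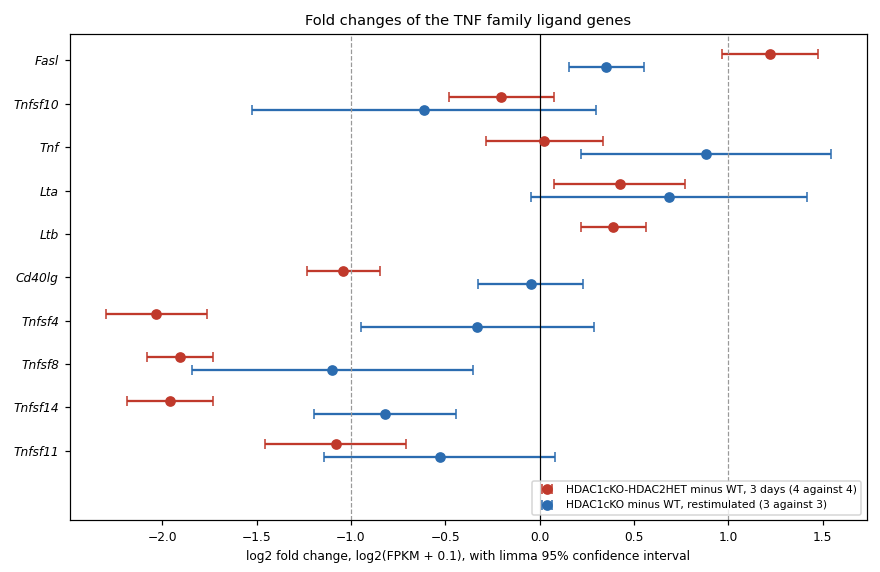
log2 fold changes on the log2(FPKM + 0.1) scale (x axis) of the ligand genes (y axis) in the first (red) and second (blue) experiment, with limma 95% confidence intervals; dashed lines mark 2-fold. The red intervals of Tnfsf4, Tnfsf8 and Tnfsf14 lie wholly beyond 2-fold lower, and the blue interval of Cd40lg spans 0 (−0.32 to 0.23).

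The fold changes of the 2 experiments, which share no samples, were compared by a contrast over all 14 samples. They differed for 4 of the 9 genes at an adjusted p of at most 0.05, against 15.7% of the 12355 genes tested. The log2 fold change of Fasl was higher in HDAC1cKO-HDAC2HET cells, by 0.87 ± 0.15 (adjusted p = 0.00230). Those of Tnfsf4, Tnfsf14 and Cd40lg were lower there, by differences of −1.70 ± 0.27 (adjusted p = 0.00171), −1.14 ± 0.18 (adjusted p = 0.00165) and −0.99 ± 0.14 (adjusted p = 8.01e-04). None of these 4 genes had passed the adjusted p in HDAC1cKO cells, where Tnfsf4 (−0.33) and Cd40lg (−0.05) overlapped with WT. The 4 differences passed the adjusted p under all 27 alternative settings. For Tnf (−0.86, adjusted p = 0.0731) and Tnfsf8 (−0.81, adjusted p = 0.0891) the difference passed without WT_restim replicate 3 and without WT_restim replicate 1, respectively (−1.14, adjusted p = 0.00712, and −1.16, adjusted p = 3.69e-04), and for Tnfsf8 also with estimated sample weights (−1.06). The Hdac2 dose, the restimulation, the sex balance and the publication of origin all differed between the experiments and cannot be told apart here.

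Of the 8 further ligand genes listed, 2 could be tested in the first experiment, and both were called lower, as were 5.56% of all genes tested. Tnfsf9, which encodes the costimulatory 4-1BB ligand, was at 12.4 ± 1.67 FPKM in WT and 1.93 ± 0.264 FPKM in HDAC1cKO-HDAC2HET samples (6.42-fold lower, adjusted p = 3.62e-06). Cd70, the ligand of CD27, was at 4.00 ± 1.30 and 1.42 ± 0.656 FPKM (adjusted p = 0.00738); it is also the neighbor of Tnfsf14, 39714 bases away. Of those left untested, Tnfsf13b was at 0.0921 ± 0.0600 and 0.102 ± 0.0673 FPKM, and Tnfsf18 was at 0 in both groups. Tnfsf15, also untested for its low level, was at 0.106 ± 0.0245 FPKM in WT and 0.0176 ± 0.00501 FPKM in mutant samples, without overlap. In the second experiment 4 of the 8 were tested and none was called or reached an unadjusted p under 0.05 (limma), where 14.4% of all genes reached that p.

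Among the 13 receptors of these ligands, 11 were tested in the first experiment; 2 were called, both lower, and at any fold change 3 passed as higher and 4 as lower, and the median log2 fold change was −0.10. Among all genes tested, 11.2% were called, 24.2% passed as higher and 27.6% as lower, and the median was −0.05. Tnfrsf1b, which encodes TNF receptor 2, was at 25.8 ± 2.77 FPKM in WT and 9.39 ± 0.269 FPKM in mutant samples (2.74-fold lower, adjusted p = 4.92e-06). Tnfrsf8, which encodes CD30, the receptor of the Tnfsf8 product, was low at 1.18 ± 0.488 FPKM and was at 0.0873 ± 0.0124 FPKM in mutant samples (adjusted p = 8.41e-05). Fas, the receptor of Fas ligand, named after its values were seen, rose from 18.5 ± 1.85 to 29.9 ± 0.839 FPKM (log2 fold change 0.69 ± 0.07, adjusted p = 9.39e-05). In the second experiment none of 12 receptors was called (limma), and 2 were lower at an unadjusted p under 0.05, as were 7.77% of all genes.

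Of the 15 adaptors and death signaling genes, all were tested, 1 was called higher and 2 lower, and at any fold change 2 passed as higher and 9 as lower (median log2 fold change −0.54), beside the same 11.2% called, 24.2% higher and 27.6% lower over all genes. Bid, a proapoptotic link from death receptors to mitochondria, rose from 9.51 ± 0.186 to 22.2 ± 1.10 FPKM (adjusted p = 1.16e-06). Cflar, which encodes the caspase-8 inhibitor c-FLIP, fell from 20.4 ± 4.90 to 7.25 ± 0.372 FPKM (adjusted p = 1.49e-04), and Ripk3, a kinase of necroptosis, fell from 26.1 ± 1.91 to 10.6 ± 1.24 FPKM (adjusted p = 1.95e-05). Of 11 genes for NF-kB subunits and their kinases, 10 were tested and none was called; 3 passed as higher and 4 as lower at smaller folds. Of 5 genes for ligand shedding none was called and 2 passed as lower. In HDAC1cKO cells none of the genes on these 3 lists was called (limma). At an unadjusted p under 0.05, 1 of 15 adaptor or death signaling genes was higher and 2 were lower. At that p 1 of 10 NF-kB genes and 3 of 5 genes for ligand shedding were lower. Among all genes of that experiment, 6.58% were higher and 7.77% lower at that p.

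**Figure D4:**
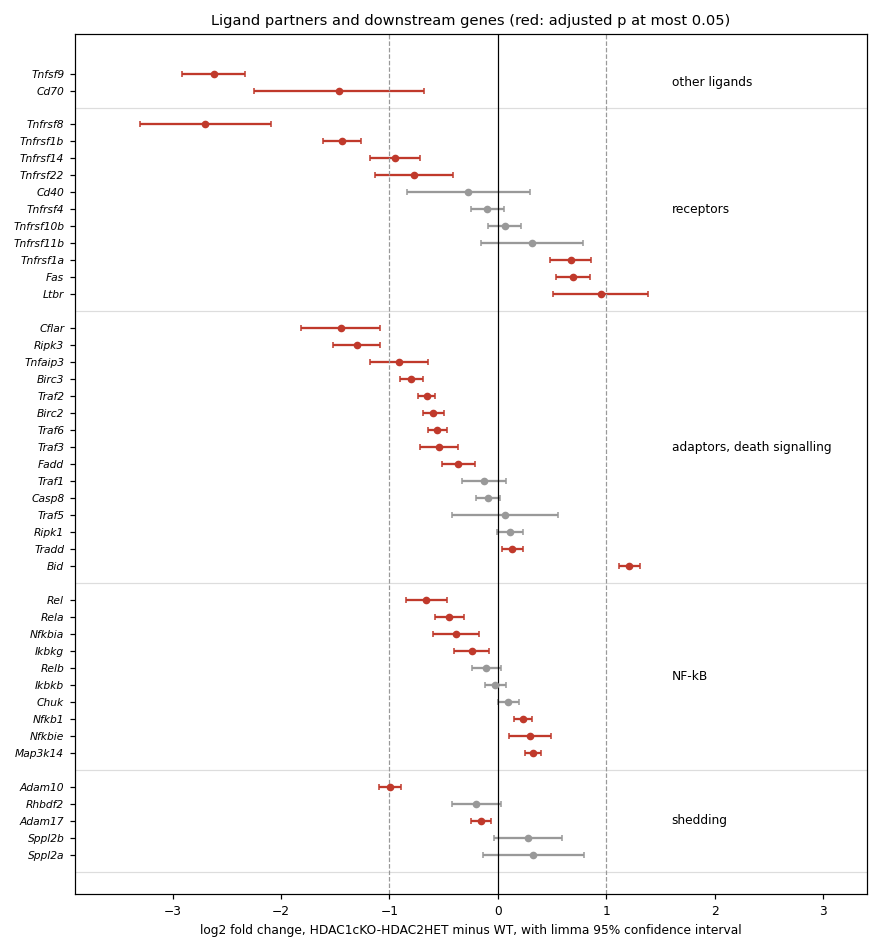
log2 fold changes of HDAC1cKO-HDAC2HET against WT (x axis) with limma 95% confidence intervals for the tested genes of the 5 lists (y axis); red marks an adjusted p of at most 0.05, gray the rest, and dashed lines mark 2-fold. Tnfsf9 and Tnfrsf8 lie farthest to the lower side, and Bid is beyond 2-fold higher.

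Of 12 regulators of activation-induced ligand genes, 10 were tested in the first experiment. Of these, 2 were called higher and 1 lower, where 5.6% and 5.56% of all genes were. At any fold change 5 passed the adjusted p as higher and 4 as lower, beside 24.2% and 27.6% of all genes. Tbx21, which encodes T-bet, was at 26.7 ± 8.6 FPKM in WT and 91.3 ± 1.84 FPKM in HDAC1cKO-HDAC2HET samples (adjusted p = 1.80e-04), and Eomes, a related T-box factor of cytotoxic cells, was at 2.84 ± 1.19 and 36.8 ± 5.95 FPKM (adjusted p = 1.47e-05). Egr3, an immediate early factor of T cell receptor signaling, fell from 145 ± 6.93 to 41.0 ± 3.4 FPKM (adjusted p = 1.22e-06). In the second experiment Tbx21 ranged from 3.04 to 46.5 FPKM in WT and from 66.0 to 70.9 FPKM in HDAC1cKO samples (limma, adjusted p = 0.327). Eomes was at 8.00 ± 3.86 and 36.7 ± 4.26 FPKM (limma, adjusted p = 0.147). None of 12 regulators was called. At an unadjusted limma p under 0.05, 4 were higher and 1 lower, where 6.58% and 7.77% of all genes were.

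Of the genes next to the ligand genes and not themselves among the 10, 9 were tested in the first experiment and 1, Cd70, was called, where 11.2% of all genes were. Lst1, beside Ltb, and C3, beside Tnfsf14, did not pass (limma, adjusted p = 0.517 and 0.424). The changes that follow were under 2-fold and passed the adjusted p, as 51.8% of all genes did. Beside Fasl, Suco, 27618 bases away, was at 7.17 ± 0.843 FPKM in WT and 6.02 ± 0.291 FPKM in HDAC1cKO-HDAC2HET samples, a small fall (log2 fold change −0.24, adjusted p = 0.0416) where Fasl rose. Beside Cd40lg, Arhgef6, 7442 bases away, fell with it, by 0.54 on the log2 scale (adjusted p = 1.56e-05). Beside Tnfsf11, Akap11 fell by 0.46 (adjusted p = 0.00231), and beside Lta, Nfkbil1 fell by 0.51 (adjusted p = 0.00409) where Lta did not fall. Beside Tnfsf10, Nceh1 rose by 0.26 (adjusted p = 0.00764), and beside Tnfsf4, Prdx6 fell by 0.28 (adjusted p = 2.21e-04).

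Over the 14 samples, with the mean of each experiment subtracted, the genes whose pattern was most like that of Fasl among 8736 protein-coding genes with a mean of at least 1 FPKM in both experiments were Mgat4b (Pearson r = 0.99), Itm2c, Anxa6, March9 and Odf2. Mgat4b went from 3.33 ± 0.215 to 10.1 ± 0.877 FPKM in the first experiment. Those most like Cd40lg were Dixdc1 (r = 0.98), Nedd9, Zcchc7, Cast and Poln, and Dixdc1 went from 2.80 ± 0.418 to 0.707 ± 0.0471 FPKM. These correlations describe points that share the step between WT and HDAC1cKO-HDAC2HET samples.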

How the data were processed

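RNA-Seq of 14 libraries of activated CD4+ T cells was used. Per the study's methods, the authors mapped single reads of stranded libraries to mm10 with TopHat and computed FPKM values with Cufflinks. These methods may not hold for the second experiment. The deposited FPKM values, given per library and scaled to library size and transcript length, were taken as Cufflinks output by their columns. The submitters' processing notes list STAR 2.5.2b and Subread 1.5.1 and name neither TopHat nor Cufflinks. Loci were assembled per library, so names and spans can differ between libraries. Loci without a name were matched to GENCODE genes of GRCm38 (shared span of at least 0.8). Values were tested as log2(FPKM + 0.1), for genes with a value in every sample and a mean of at least 0.1 FPKM, with limma 3.58.1 (intensity trend) in R 4.3.3, separately for each experiment, with Benjamini-Hochberg adjustment. The pseudocount understates changes of low genes. Single genes had 2-sided exact permutation tests. Depth was estimated from the Cufflinks bounds. The fits were tested on simulated data.

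The 10 members, all gene lists and the rule for named genes (every member, called genes of the lists, neighbors, the 5 genes most like Fasl and Cd40lg) were chosen with earlier results of these data known. Groups came from the sample labels. Other pseudocounts, filters, scalings, weights, covariates and left-out samples were tried.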

Additional observations from a re-analysis of the deposited data

Results flagged for a closer look

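For 4 of the 9 ligand genes tested, the effect of the mutation differed between the experiments by the contrast of fold changes over all 14 samples. The difference, HDAC1cKO-HDAC2HET minus HDAC1cKO, was 0.87 for Fasl, −1.14 for Tnfsf14, −1.70 for Tnfsf4 and −0.99 for Cd40lg on the log2 scale. With a separate spread for each experiment the 4 adjusted p values (limma) were 0.00224, 0.00433, 0.00778 and 0.00175. Whether the Hdac2 allele or the restimulation goes with these differences was not tested, since no sample separates them. Of the 20 groups of 4 member values, 0 held a sample far from the others by Dixon's test.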

How the results depend on the processing

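Over the alternatives tried, Fasl and the 5 ligand genes called lower in HDAC1cKO-HDAC2HET cells kept their direction and stayed past the adjusted p in 20 of 20 settings each, with log2 fold changes of 1.11 to 1.32 for Fasl. With medians set equal, 3 genes were called lower in place of 5, and without WT_3d replicate 1 there were 4 (Tnfsf11 fell just under 2-fold). With both experiments in one fit, the genes past the adjusted p as higher in HDAC1cKO-HDAC2HET cells were 1 in place of 3 (Ltb has no complete values there, and Lta was lost), and in HDAC1cKO cells 1 gene was called lower, 1 passed the adjusted p as higher (Tnf) and 2 as lower (Tnfsf8 and Tnfsf14), where the fit of that experiment alone gave 0. The direction of Tnf in the first experiment turned under quantile normalization (−0.0239) and in 4 of the 8 fits that left out 1 sample each (range −0.0520 to 0.0912). That of Cd40lg in the second turned with medians set equal (0.00296), estimated sample weights (0.00880) and sex as a covariate (0.0486), and without WT_restim replicate 1 or HDAC1cKO_restim replicate 2 (range −0.117 to 0.0438 with 1 sample left out); none of these passed the test. Tnfsf4 in the second turned to 0.20 with sex as a covariate. The cause of these shifts was not tested.

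Deviations of same-numbered samples from their group means correlated between −0.02 and 0.05, so the numbers were not used to pair samples. With the replicate block Tnfsf10 passed the adjusted p as lower in the first experiment (log2 fold change −0.20, adjusted p = 0.0190), and the counts called stayed at 1 higher and 5 lower; 1 of 4 and 0 of 3 mutant samples correlated best with the WT sample of their own number. All 8 libraries of the first experiment had Xist, so sex could not be a covariate there. In the second experiment that covariate left WT_restim replicate 2 as the only WT sample set against the mutants. Named rows alone left no member but Tnfsf14 testable in the second experiment and none in the first. Over all genes, 846 higher and 840 lower calls in the first experiment became 416 and 324 with a pseudocount of 1, 530 and 499 with a mean of at least 1 FPKM, and 225 higher of 414 calls in all with named rows alone. In the second, 1 higher and 8 lower became 22 and 30 without WT_restim replicate 3, and ranged from 0 to 154 and from 4 to 159 over all settings. The 1938 genes whose fold changes differed became 1128 with a separate spread and 54 with named rows alone.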
